A study of Rattus norvegicus with 6 samples.

Results

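The muscle miRNAs described here are 8 rat mature miRNAs from the striated muscle families miR-1, miR-133, miR-206, miR-208 and miR-499. They were chosen by name and not by their values, although earlier results of these data were known. Of the 8, rno-miR-206-3p, rno-miR-133a-3p, rno-miR-1-3p, rno-miR-133b-3p and rno-miR-499-5p were analysed, 5 of the 867 miRNA sequences in the deposited table. The other 3, rno-miR-133a-5p, rno-miR-208a-3p and rno-miR-208b-3p, were not analysed here. Small RNA was sequenced from circulating exosomes, the small membrane vesicles that cells release, prepared by ultracentrifugation of serum from male Sprague-Dawley (SD) rats of 6 to 8 weeks on a normal diet. The 5 NXT-Exo libraries (replicates 1 to 5) came from rats gavaged with Naoxintong Capsule (NXT), a traditional Chinese medicine, at 1000 mg/kg/d, and the 1 Ctl-Exo library analysed here (replicate 5) from rats given saline at 5 mL/kg/d. The table also has columns headed Ctl-Exo 1 to 4, which match no sample label used here and were not analysed, so every comparison below is with 1 of the 5 control columns. By its title each library followed 7 days of gavage, but the treatment field counts 7, 8, 9, 10 and 11 days across NXT-Exo 1 to 5, with 11 for Ctl-Exo 5. Each group had 10 rats, and the sources used here do not state which rats went into which library, so p-values measure only the spread between these libraries, which may be technical.

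miRNAs are short RNAs that pair with messenger RNAs, mainly through bases 2 to 8 (the seed), and lower their output. miR-1, miR-133, miR-206, miR-208 and miR-499 are known as myomiRs because heart and skeletal muscle express them far above other tissues. miR-1 and miR-133a are made in both kinds of striated muscle, miR-206 and miR-133b mainly in skeletal muscle, and miR-208 and miR-499 from introns of myosin heavy chain genes. When muscle fibres or heart muscle cells are damaged, these miRNAs are known to appear in blood.

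The listed sequences of the 5 miRNAs, and of 3 relatives in the table, are shown because several differ by very few bases, which decides how reads are divided between them. They are written 5′ to 3′ with T for U as deposited, with the seed in capitals.
rno-miR-1-3p: tGGAATGTaaagaagtgtgtat
rno-miR-1b: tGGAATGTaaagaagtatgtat
miR-1-y: tGGAATGTaaagaagtatggag
rno-miR-206-3p: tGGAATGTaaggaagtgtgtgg
rno-miR-133a-3p: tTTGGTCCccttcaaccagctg
rno-miR-133b-3p: tTTGGTCCccttcaaccagcta
miR-133-y: tTGGTCCCcttcaaccagctgtt
rno-miR-499-5p: tTAAGACTtgcagtgatgttt

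Of these 8 sequences, the 6 with the rat prefix were identical to the RefSeq mature miRNAs of the rat assembly GRCr8. miR-1-3p, miR-1b, miR-1-y and miR-206-3p share the seed GGAATGT, and no other listed sequence has it. Counting from 1 at the 5′ end, miR-1b differs from miR-1-3p by G17A alone, and miR-206-3p from miR-1-3p by A11G, A21G and T22G. As background, human and mouse miR-1 carry the base of rno-miR-1b at that position. miR-133a-3p and miR-133b-3p share the seed TTGGTCC and differ by G22A, their last base, so reads that end before it fit both. miR-133-y begins at base 2 of miR-133a-3p and runs 2 bases beyond its end, which shifts its seed to TGGTCCC. miR-499-5p has the seed TAAGACT. How the authors assigned reads that fit more than 1 sequence is not given in the sources used here, so values within the miR-1 and miR-133 groups are less certain than their sums.

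In GRCr8, the mature miR-1-3p lies at chr18:2160339-2160360 and miR-133a-3p at chr18:2157886-2157907, both on the minus strand, with 2368 bases between their hairpins and inside the span of the gene Mib1. miR-206-3p (chr9:30590747-30590768) and miR-133b-3p (chr9:30594629-30594650) lie on the plus strand with 3801 bases between their hairpins, inside the span of the locus LOC120094648. miR-499-5p (chr3:164570616-164570636, plus strand) lies inside Myh7b, a myosin heavy chain gene. miR-1b (chr3:187864736-187864757, plus strand) is on the same chromosome as miR-499-5p, outside any other gene of the table. As placed here, the 5 miRNAs thus lie at 3 separate loci, and Mir1 with Mir133a1 and Mir206 with Mir133b each form a pair. Whether other copies of these sequences contributed reads was not tested.

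The listed reads summed to between 1168686 in NXT-Exo 4 and 3781718 in NXT-Exo 5, and to 1890463 in Ctl-Exo 5. Counts were scaled to CPM, the count per 1000000 listed reads of the library after TMM library factors of 0.932 to 1.095. A single read then equalled between 0.261 and 0.782 CPM. Reads without molecular identifiers are not independent molecules, so the Wilson 95% intervals below cover counting error only.

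The muscle miRNAs were rare in serum exosomes. Together they took 378, 534, 328, 144 and 662 reads in NXT-Exo 1 to 5, against 223 for Ctl-Exo 5. These are shares of 0.0123% to 0.0175% of the listed reads under NXT and 0.0118% for Ctl-Exo 5. miR-206-3p, the skeletal muscle miRNA, was the highest of them in 5 of the 6 libraries, at place 173 to 272 of the 867 sequences by reads. The relative miR-1b, which is outside these 5, lay above miR-206-3p in every library except NXT-Exo 5. miR-133a-3p stood at place 207 to 263, miR-1-3p at 236 to 321 and miR-133b-3p at 295 to 383. miR-499-5p was the lowest in the 5 NXT-Exo libraries, at place 316 to 712, and lay above miR-133b-3p in Ctl-Exo 5.

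By NXT-Exo mean the order was miR-206-3p, miR-133a-3p, miR-1-3p, miR-133b-3p and miR-499-5p. No neighbours in this order differed beyond their spread over libraries, since the ranges of each pair overlapped. miR-1-3p was above miR-133b-3p in 6 of 6 libraries. miR-206-3p was above miR-133a-3p in 5 of 6, miR-133b-3p above miR-499-5p in 5 of 6, and miR-133a-3p above miR-1-3p in 4 of 6.

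**Figure D1:**
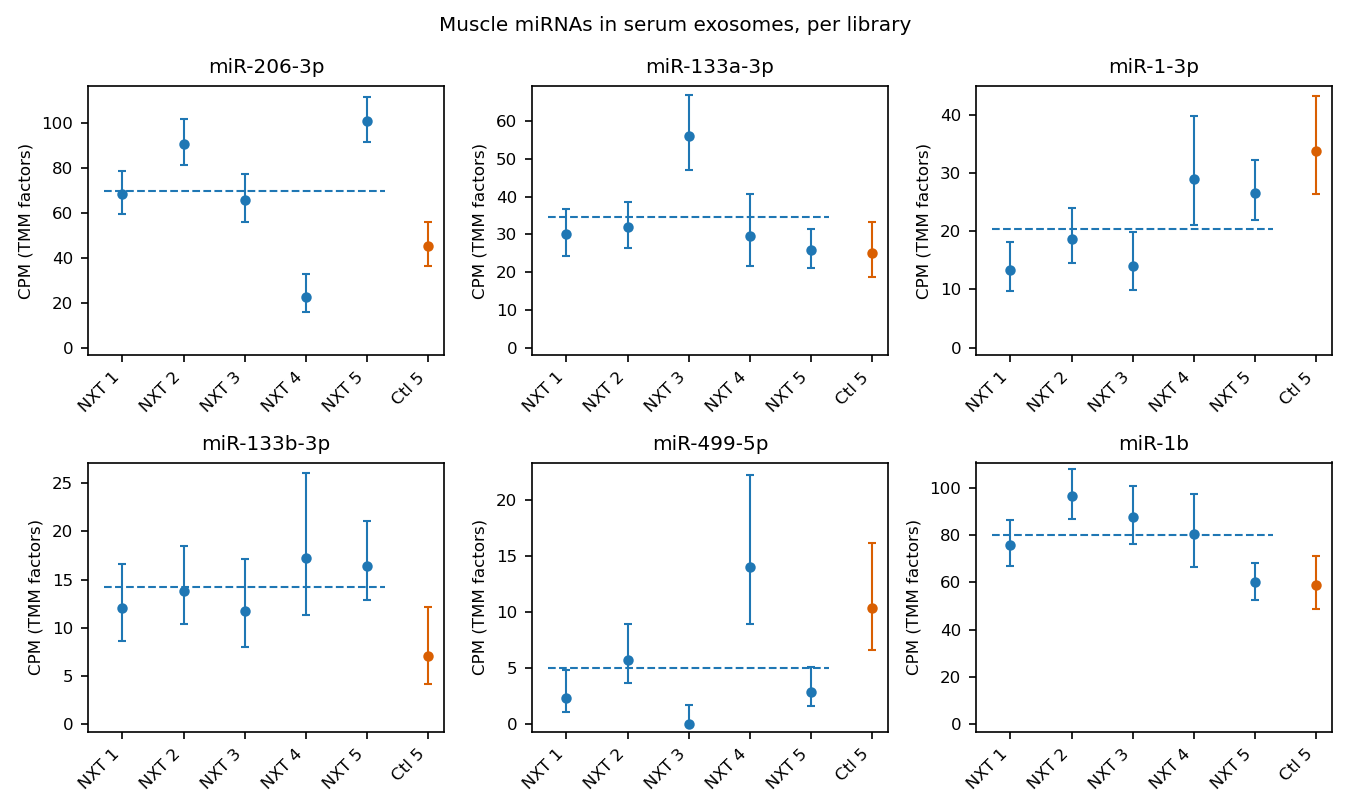
Level of the 5 muscle miRNAs and of miR-1b in each library, in CPM on a linear axis. Points are libraries (blue NXT-Exo, orange Ctl-Exo 5), bars are Wilson 95% intervals of the reads and dashed lines the mean of the 5 NXT-Exo libraries; miR-1-3p in Ctl-Exo 5 (33.8 CPM) is above every NXT-Exo library, and miR-133b-3p (7.08 CPM) is below every one.

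The question was whether NXT altered the level of these miRNAs in circulating exosomes. In the NXT-Exo libraries miR-133b-3p and miR-133a-3p were higher than in Ctl-Exo 5 throughout, miR-1-3p was lower throughout, and miR-206-3p and miR-499-5p overlapped with Ctl-Exo 5. None of the 5 passed the test between the groups. With Ctl-Exo 5 as the only control library used, edgeR's quasi-likelihood test takes its spread from the 5 NXT-Exo libraries. It moderates the spread of each miRNA towards that of all miRNAs tested, and assumes that Ctl-Exo 5 varies as the NXT-Exo libraries do.

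miR-206-3p, which is restricted mainly to skeletal muscle and is raised in regenerating fibres, was 68.3, 90.7, 65.6, 22.7 and 101 CPM in NXT-Exo 1 to 5 and 45.2 CPM (95% interval 36.5 to 56.0) in Ctl-Exo 5. Thus NXT-Exo 1, 2, 3 and 5 exceeded Ctl-Exo 5, whereas NXT-Exo 4 was below it, with an interval (15.8 to 32.6 CPM) apart from that of Ctl-Exo 5. The NXT-Exo mean was 69.6 ± 30.2 CPM (SD, n = 5), 1.54 times Ctl-Exo 5. In edgeR the log2 fold change was 0.63 with a standard error of 0.53 and a 95% interval of -0.48 to 1.75, and the Benjamini-Hochberg adjusted p was 0.776. Without NXT-Exo 4 the log2 fold change was 0.84, with an unadjusted edgeR p of 0.0248 and an adjusted p of 0.64.

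miR-133b-3p, encoded beside miR-206, was 12.0, 13.9, 11.7, 17.2 and 16.4 CPM in NXT-Exo 1 to 5, from 22 to 63 reads, and 7.08 CPM (95% interval 4.14 to 12.1) in Ctl-Exo 5, from 13 reads. Ctl-Exo 5 was thus the lowest of the 6 libraries, although the counting intervals of NXT-Exo 1 to 4 reached into its own. The mean of 14.2 ± 2.51 CPM (SD, n = 5) was 2.01 times Ctl-Exo 5. The edgeR log2 fold change of 0.93 had a standard error of 0.57, a 95% interval of -0.27 to 2.13 and an adjusted p of 0.776. This was the member with the smallest unadjusted edgeR p, 0.0981.

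miR-133a-3p, which restrains smooth muscle genes and proliferation in heart muscle, was 30.0, 31.9, 56.2, 29.7 and 25.8 CPM in NXT-Exo 1 to 5 and 25.0 CPM (95% interval 18.8 to 33.4) in Ctl-Exo 5. Ctl-Exo 5 was again lowest, but 4 of the NXT-Exo values lay inside its interval and NXT-Exo 3 (47.2 to 67.0 CPM) alone had an interval above it. The mean was 34.7 ± 12.2 CPM (SD, n = 5), and the edgeR log2 fold change was 0.46 with a standard error of 0.46, a 95% interval of -0.52 to 1.44 and an adjusted p of 0.776. It was 0.23 without NXT-Exo 3.

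miR-1-3p, encoded beside miR-133a and known to promote muscle differentiation, was 13.3, 18.7, 13.9, 28.9 and 26.6 CPM in NXT-Exo 1 to 5 and 33.8 CPM in Ctl-Exo 5. Ctl-Exo 5 was the highest library, and 3 of the others (NXT-Exo 1, 2 and 3, with upper limits of 18.2, 23.9 and 19.8 CPM) were below the interval of Ctl-Exo 5, which began at 26.3 CPM. The mean was 20.3 ± 7.17 CPM (SD, n = 5), and Ctl-Exo 5 was 1.66 times this. The edgeR log2 fold change was -0.72 with a standard error of 0.47, a 95% interval of -1.71 to 0.26 and an adjusted p of 0.776. By point value, miR-1-3p thus differed in direction from miR-133a-3p, its partner at the same locus, in every NXT-Exo library compared with Ctl-Exo 5. These comparisons all reuse the single Ctl-Exo 5 library, and in NXT-Exo 5 miR-133a-3p was 25.8 CPM against 25.0 CPM. Only in NXT-Exo 3 were the intervals of both miRNAs apart from those of Ctl-Exo 5. However, miR-1b, which differs from miR-1-3p by G17A alone, was above Ctl-Exo 5 in all 5 NXT-Exo libraries. How far the direction of miR-1-3p rests on the division of reads between it and miR-1b was not tested. The study had itself picked miR-1-3p from these libraries, so its direction is not independent evidence.

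miR-499-5p, made from an intron of Myh7b and found in heart and slow skeletal fibres, had 7, 19, 0, 18 and 11 reads in NXT-Exo 1 to 5 and 19 in Ctl-Exo 5. These are 2.33, 5.72, 0, 14.1 and 2.87 CPM against 10.3 CPM (95% interval 6.62 to 16.2). NXT-Exo 4 was above Ctl-Exo 5 and the other 4 were below it, and the 0 reads of NXT-Exo 3 have a Wilson upper limit of 1.73 CPM (1.35 CPM by the limit of 3 reads). The NXT-Exo SD of 5.46 CPM was larger than the mean of 5.00 CPM (n = 5). The edgeR log2 fold change of -1.03 had a standard error of 1.11, a 95% interval of -3.38 to 1.32 and an adjusted p of 0.776, and it was -1.66 without NXT-Exo 4.

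**Figure D2:**
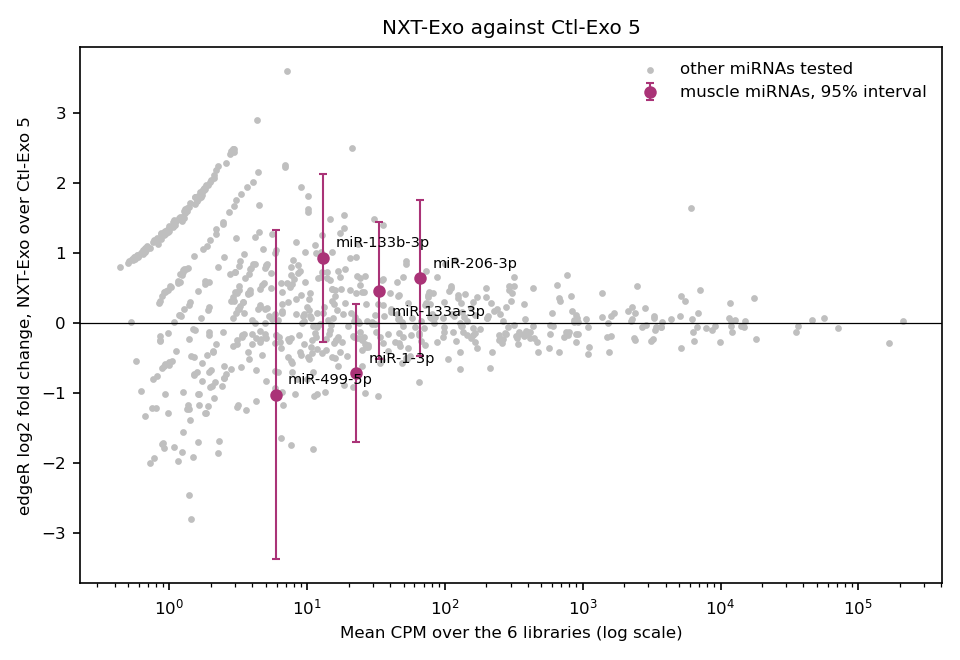
edgeR log2 fold change of NXT-Exo over Ctl-Exo 5 against mean CPM over the 6 libraries on a log axis, for the 736 miRNAs tested. Grey points are other miRNAs and purple points the 5 muscle miRNAs with 95% intervals, all of which span 0; 3 lie above 0 and 2 below.

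Of the 736 miRNAs with at least 10 reads in all, edgeR called 0 (0%) at an adjusted p below 0.05, and DESeq2 also called 0. At an unadjusted p below 0.05 edgeR gave 40 (5.43%) and DESeq2 34, none of them a member by either tool. All NXT-Exo libraries lay above Ctl-Exo 5 for 2 of the 5 members and for 17.7% of all miRNAs tested, and below it for 1 of the 5 and for 15.5%. No member was both outside the NXT-Exo range and at least 2-fold apart on the log2(CPM + 1) scale, against 11.7% of all. The members' median log2 fold change was 0.46, and that of all miRNAs tested was 0.11. With 5 libraries against 1, an exact permutation test of a single value, made two-sided by doubling the one-sided p, cannot give less than p = 0.333. More vesicles from muscle and more of a miRNA per vesicle cannot be told apart in these data.

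The summed level of the 5 members was 126, 161, 147, 113 and 173 CPM in NXT-Exo 1 to 5 and 121 CPM in Ctl-Exo 5. NXT-Exo 4 was below Ctl-Exo 5 on this scale, and above it when scaled to the listed reads or to the library totals behind the deposited TPM values. The log2 difference of the sums was 0.243, within the NXT-Exo SD of 0.252 on the same scale. By locus, the chromosome 9 pair of miR-206-3p and miR-133b-3p summed to 83.9 ± 29.7 CPM (SD, n = 5) under NXT against 52.3 CPM, with 4 of 5 libraries above Ctl-Exo 5. The chromosome 18 pair of miR-1-3p and miR-133a-3p summed to 55.0 ± 10.1 CPM (SD, n = 5) against 58.8 CPM, with 1 of 5 above.

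The make-up of these reads also differed between libraries. miR-206-3p held 54.2%, 56.4%, 44.5% and 58.5% of the members' reads in NXT-Exo 1, 2, 3 and 5, but 20.1% (95% interval 14.4% to 27.4%) in NXT-Exo 4 and 37.2% (31.1% to 43.7%) in Ctl-Exo 5. miR-499-5p held 0% to 3.56% in NXT-Exo 1, 2, 3 and 5, 12.5% in NXT-Exo 4 and 8.52% in Ctl-Exo 5. NXT-Exo 4 therefore stood nearer to Ctl-Exo 5 than to the other NXT-Exo libraries in both.

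Between miR-1-3p and miR-206-3p, which share a seed but come from different loci, miR-1-3p took 16.3% to 20.9% of the reads in NXT-Exo 1, 2, 3 and 5. It took 56.1% (95% interval 44.1% to 67.4%) in NXT-Exo 4 and 42.8% (35.0% to 50.9%) in Ctl-Exo 5. The intervals of these 2 libraries lay above those of the other 4, the highest of which ended at 24.7%. NXT-Exo 4 and Ctl-Exo 5 were also the 2 libraries with the fewest reads, and the part of depth in this pattern was not tested.

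**Figure D3:**
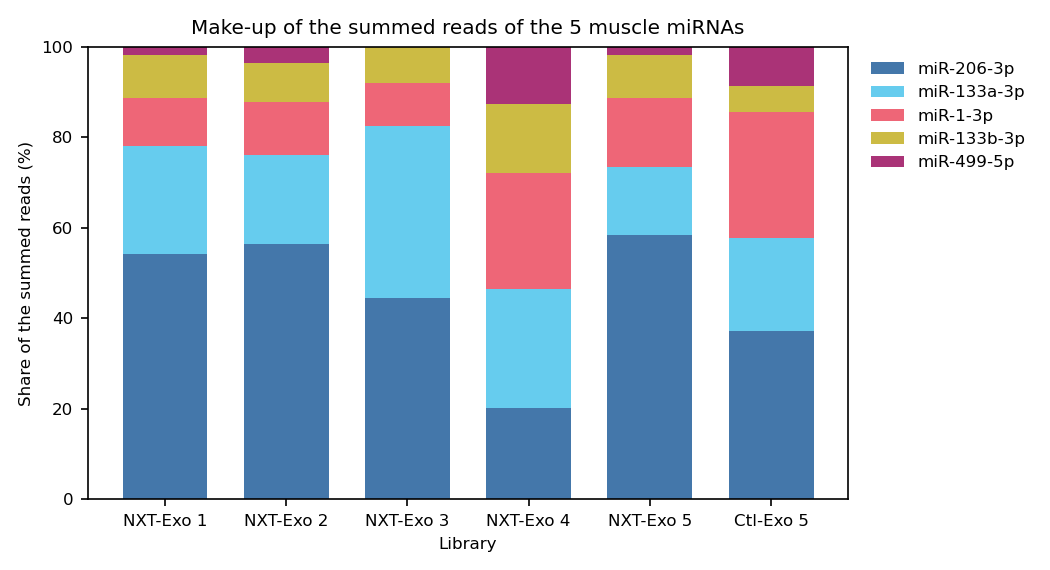
Share of each muscle miRNA in the summed reads of the 5, in percent, as 1 stacked bar per library. miR-206-3p makes up 44.5% to 58.5% in NXT-Exo 1, 2, 3 and 5, 20.1% in NXT-Exo 4 and 37.2% in Ctl-Exo 5.

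miR-1b, a second miR-1 of the rat that is 1 base apart from miR-1-3p, had more reads than miR-1-3p in all 6 libraries. It was 76.0, 96.7, 87.7, 80.5 and 60.0 CPM in NXT-Exo 1 to 5 and 58.8 CPM in Ctl-Exo 5. miR-1b was thus above miR-206-3p in all libraries but NXT-Exo 5, where miR-206-3p was 101 CPM. Ctl-Exo 5 was the lowest, with NXT-Exo 5 close to it, and the edgeR log2 fold change was 0.44 with a standard error of 0.32, a 95% interval of -0.25 to 1.13 and an adjusted p of 0.776. The direction relative to Ctl-Exo 5 was therefore the reverse of that of miR-1-3p.

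Of the reads of miR-1-3p and miR-1b together, miR-1-3p made up 14.9%, 16.2%, 13.7%, 26.4% and 30.7% in NXT-Exo 1 to 5 and 36.5% (95% interval 29.6% to 43.9%) in Ctl-Exo 5. The NXT-Exo mean of 20.4% ± 7.67 (SD, n = 5) was 16.1 percentage points lower than Ctl-Exo 5, and all 5 libraries were lower. The intervals of NXT-Exo 4 (19.8% to 34.3%) and NXT-Exo 5 (26.0% to 35.9%) overlapped that of Ctl-Exo 5, and those of the other 3 ended at or below 20.2%. This share does not depend on library scaling.

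miR-1-y, named without the rat prefix, differs from miR-1b by T20G and T22G. It had 11 to 23 reads per NXT-Exo library and 12 in Ctl-Exo 5, with a mean of 5.81 ± 2.41 CPM (SD, n = 5) against 6.53 CPM. Its edgeR log2 fold change was -0.18 with an adjusted p of 0.959. The 4 sequences of the seed GGAATGT summed to 162, 213, 172, 141 and 191 CPM in NXT-Exo 1 to 5 and 144 CPM in Ctl-Exo 5, so that 4 libraries were above it and NXT-Exo 4 was slightly below.

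In the miR-133 group, miR-133a-3p and miR-133b-3p summed to 42.0, 45.8, 67.9, 46.9 and 42.3 CPM in NXT-Exo 1 to 5 and 32.1 CPM in Ctl-Exo 5, with every NXT-Exo library above. miR-133b-3p made up 17.2% to 38.9% of the reads of this pair under NXT and 22.0% (95% interval 13.4% to 34.1%) in Ctl-Exo 5. The lowest share was that of NXT-Exo 3, where miR-133a-3p was highest. miR-133-y, the form with the shifted start, had 6 reads in NXT-Exo 2 and 8 in NXT-Exo 3 and 0 in the other 4 libraries. NXT-Exo 3 was highest for miR-133-y as well, but its interval (1.82 to 7.10 CPM) overlapped that of NXT-Exo 2 (0.83 to 3.94 CPM). The 0 reads of NXT-Exo 4 have an upper limit of 3.00 CPM.

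**Figure D4:**
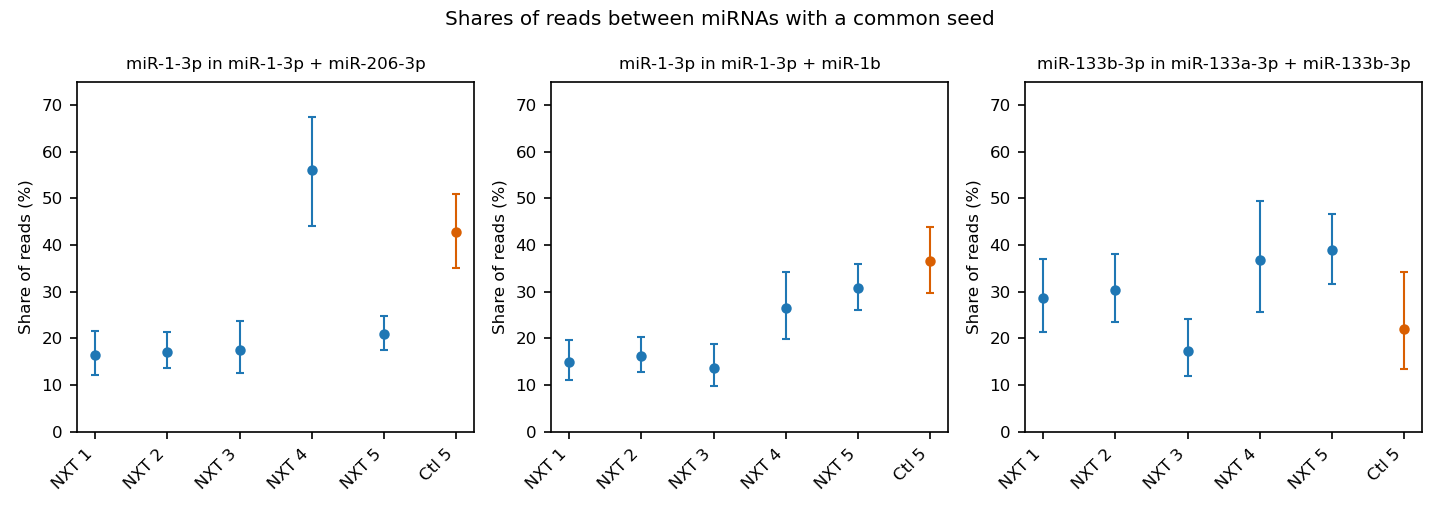
Share of reads between miRNAs that share a seed, in percent per library, with Wilson 95% intervals (blue NXT-Exo, orange Ctl-Exo 5). Left, miR-1-3p among miR-1-3p and miR-206-3p, at 56.1% in NXT-Exo 4 and 42.8% in Ctl-Exo 5; centre, miR-1-3p among miR-1-3p and miR-1b, highest in Ctl-Exo 5 at 36.5%; right, miR-133b-3p among both miR-133 forms.

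The members also differed in how far the NXT-Exo libraries spread. The SD of miR-206-3p was 43.3% of its mean, where counting error alone would give 7.14%. miR-133a-3p (35.1% against 11.1%) and miR-1-3p (35.3% against 14.9%) likewise spread beyond counting. So did most miRNAs, since the median ratio of spread to counting error over the 467 miRNAs averaging 10 reads or more was 2.41, against 6.07 for miR-206-3p, 3.15 for miR-133a-3p and 2.37 for miR-1-3p. The spread of miR-133b-3p (17.6%) was close to counting error (17.5%), and that of miR-499-5p was 109% against 33.8%. Over the same 467 miRNAs the median spread was 22.1%, and 2 had a larger one than miR-499-5p.

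**Figure D5:**
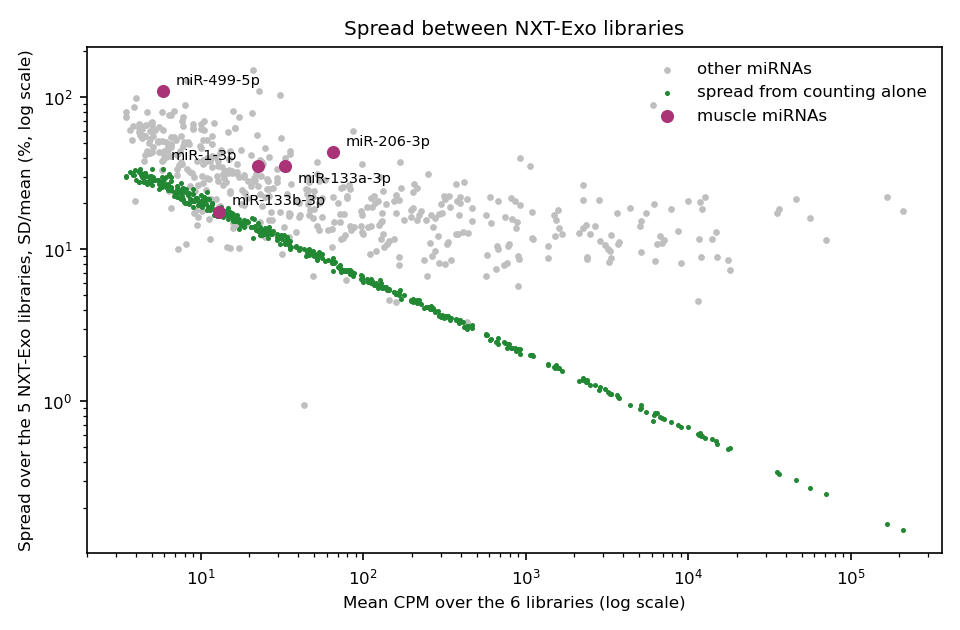
Spread over the 5 NXT-Exo libraries (SD as percent of the mean) against mean CPM, both on log axes, for the 467 miRNAs averaging 10 reads or more. Green points give the spread from counting alone; of the muscle miRNAs in purple, miR-133b-3p (17.6%) lies on them and miR-499-5p (109%) is the most variable.

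Lists of miRNAs of other cells and tissues were summed in the same libraries. Smooth muscle miRNAs (4 of 4 listed, led by miR-143-3p and miR-145-5p) summed to 7461 to 12177 CPM under NXT against 12233 CPM, far above the striated muscle miRNAs. Ctl-Exo 5 had the highest sum, and NXT-Exo 4 (12177 CPM) and NXT-Exo 1 (12087 CPM) were nearest to it. A list of 10 less specific miRNAs that are described in striated muscle, led by miR-26a-5p and miR-23a-3p, summed to 144323 to 149275 CPM against 155382 CPM, again lower in all 5. Here NXT-Exo 4 had the lowest sum and was farthest from Ctl-Exo 5. No miRNA of either list passed the edgeR test (smallest adjusted p over all miRNAs 0.361), with 0 of 4 and 3 of 10 higher and 4 of 4 and 7 of 10 lower by fold change.

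For blood cells, the 6 red blood cell miRNAs listed, led by miR-486 and miR-16-5p, summed to 160581 to 263807 CPM in NXT-Exo around the 214523 CPM of Ctl-Exo 5. The 7 platelet and white blood cell miRNAs, led by miR-142-5p and miR-146a-5p, summed to 24738 to 28604 CPM under NXT against 30261 CPM. This sum was lower in all 5 NXT-Exo libraries, with NXT-Exo 4 nearest to Ctl-Exo 5. By fold change 1 of the 7 was higher and 6 were lower, and 3 were below Ctl-Exo 5 in every NXT-Exo library. The 5 liver miRNAs, led by miR-192-5p and miR-122-5p, had a higher sum in all NXT-Exo libraries (10942 to 24428 CPM against 7640 CPM). By fold change 5 of 5 were higher, and 2 were above Ctl-Exo 5 in every NXT-Exo library. Over all miRNAs tested, 17.7% were above Ctl-Exo 5 in every NXT-Exo library and 15.5% were below it. In the other lists, 2 of 4 smooth muscle, 1 of 10 less specific striated muscle and 1 of 6 red blood cell miRNAs were below throughout, and 0 were above. The library nearest to Ctl-Exo 5 was NXT-Exo 5 for the red blood cell sum and NXT-Exo 3 for the liver sum. Of these lists 0 miRNAs passed the test, and their median log2 fold changes were -0.07, -0.24 and 1.29. The liver list holds miR-802-5p, which the study picked in its own screen of this series, so the list is not independent. The part of these other sources in the muscle values was not tested.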

How the data were processed

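Reads were cleaned by the authors with ACGT101-miR (adapter dimers, junk, repeats and other RNA classes taken out), and the deposited counts are whole reads for each miRNA. The submitters' processing notes name the build Rnor_6.0. The aligner and miRNA database release are not given in the sources used here. The authors also deposited TPM, which is the count times a constant per library, with 0 reads written as 0.01. A further 8 columns (counts and TPM headed Ctl-Exo 1 to 4) match no sample label used here and were not used, which leaves 1 control library. Libraries differed beyond counting noise (chi-square per degree of freedom 38.1 or more for every pair), so each was counted once.

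Counts of the 736 miRNAs with at least 10 reads over the 6 libraries were fitted with edgeR 4.0.16 (TMM, quasi-likelihood test, prior count 2, two-sided, Benjamini-Hochberg adjustment) in R 4.3.3, with 4 residual degrees of freedom. The standard error is the absolute log2 fold change of a second fit, with a smaller prior count, divided by the square root of its F. Intervals are centred on the log2 fold change at prior count 2. They use the total degrees of freedom, after edgeR moderates the spread over all miRNAs tested. Alternatives were DESeq2 1.42.0, other library factors, filters and prior counts, and leaving out each NXT-Exo library. CPM, shares, Wilson intervals and plots were made in Python 3.11.15 with scipy 1.17.1 and matplotlib 3.10.9. The members and lists were chosen with earlier results of these data known. Named are all members, their relatives in the table, the 2 highest miRNAs of each list and the 5 nearest in profile to the highest member.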

Additional observations from a re-analysis of the deposited data

Results flagged for a closer look

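Each of 18 measures was examined over the 5 NXT-Exo libraries, and in 4 the highest library stood apart (gap to the nearest library over the range above 0.71), where chance flags about 1 in 20. The sets share reads and are not independent. For miR-133a-3p, NXT-Exo 3 was the highest, with a gap of 0.799. The other 3 were shares in NXT-Exo 4, which was the highest for miR-1-3p among miR-1-3p and miR-206-3p (0.886), for miR-133b-3p among the members (0.783) and for miR-499-5p among the members (0.715).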

How the results depend on the processing

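For each of the 5 members, the log2 fold change kept its sign and stayed above an adjusted p of 0.05 under all 13 alternatives, of which the library totals behind the deposited TPM values were added after seeing the data, as was the addition of miR-1b below. The ranges were 0.47 to 0.84 for miR-206-3p, 0.23 to 0.55 for miR-133a-3p, -0.86 to -0.61 for miR-1-3p, 0.76 to 0.99 for miR-133b-3p and -1.66 to -0.76 for miR-499-5p, with adjusted p of 0.64 to 0.943. The number of miRNAs called was 0 in all of them. The number at an unadjusted p below 0.05 (40) was 24 for miRNAs averaging 10 reads or more, where fewer are tested, and 26 to 51 when each NXT-Exo library was left out, with the lowest without NXT-Exo 5. The number outside the NXT-Exo range and 2-fold apart (86) was 30 with that minimum and 4 with a pseudocount of 10. The summed level of the members was between 0.17 and 0.32 (log2), also with the reads of miR-1b added. No paired analysis was made because the sources used here do not pair NXT-Exo with Ctl-Exo libraries. With the columns headed Ctl-Exo 1 to 4 not analysed here, replicate number 5 was the only number present in both groups. Depth limits miR-499-5p and miR-133b-3p most, with 0 to 19 and 13 to 63 reads per library.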

Other observations

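The miRNAs with the profile nearest to that of miR-206-3p over the 6 libraries, by the root mean square difference of centred log2(CPM + 1) among 467 miRNAs averaging 10 reads or more, were miR-128-2-5p (0.32), a sequence that the authors' pipeline predicted and that has no established name (0.32), miR-326-y (0.36), miR-744-y (0.37) and miR-671 (0.39). All 5 were lowest in NXT-Exo 4, as miR-206-3p was, but they were picked for likeness to it, so this is not separate evidence. In NXT-Exo 4 the limit of 3 reads is 2.35 CPM. The predicted sequence (2.35 CPM), miR-326-y (3.13 CPM) and miR-744-y (1.56 CPM) were at, near or below it there. For example, miR-671 was 27.4 CPM in NXT-Exo 4, 31.6 CPM in Ctl-Exo 5 and 48.1 to 56.6 CPM in the others. Against a median difference of 0.770 over these miRNAs, miR-133a-3p (0.769, place 231 of 466) and miR-133b-3p (0.794, place 264) were near the middle, and miR-1-3p (1.02, place 415) and miR-499-5p (1.78, place 466) were far from this profile.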
